A study of Mus musculus with 39 samples.

Results

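The Id family comprises 4 genes, Id1, Id2, Id3 and Id4, out of 53379 genes in each count table. They were read in the 36 of 39 RNA-seq libraries of sorted mouse neocortical cells in which at least 40% of reads aligned uniquely. The lowest share kept was 50.5% and the highest share left out was 36.1%. The family was chosen because Id4 fell from E13 to E16 in the yellow cells of these libraries, so the yellow values of Id4 chose the members and are described below without a test. Red and green libraries took no part in that choice, but most come from the same embryos as the yellow ones.

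All embryos carried the cassettes MADM-7-GT and MADM-7-TG on chromosome 7 and Cre recombinase expressed from Emx1, a gene active in cortical progenitors, and the yellow control cells carry all 3 alleles as well. In Mosaic Analysis with Double Markers (MADM), recombination between the homologues of a dividing cell leaves sparse green (GFP) and red (tdTomato) cells whose chromosome 7 pair stems from 1 parent, called uniparental disomy (UPD), while yellow cells hold a maternal and a paternal copy. Red cells had paternal UPD (patUPD) and green cells maternal UPD (matUPD) in replicates 1 to 3, and the reverse held in replicates 4 and up, here called the first and second set. After the rule on alignment, embryonic day (E) 13 held 5 red, 5 green and 5 yellow libraries and E16 held 7 of each, each from a small pool of cells of a single embryo, with CD1 as the labelled strain on a background mixed with C57BL/6J. An age and a replicate number together were read as 1 embryo. The mice carry no deletion, and by design the colours differ in the parental origin of chromosome 7, on which no Id gene lies, and in the fluorescent reporter.

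Gene counts per library ran from 472924 to 5205788, and 7858 to 13768 genes had a count. Values are given in CPM, the count of a gene scaled to the library's total count in genes, and 3 counts, taken as the lowest level a library can show, equal 0.576 to 6.34 CPM. Cdkn1c, the maternally expressed gene of chromosome 7 that checks the direction of the disomy, was higher in the matUPD than in the patUPD library of all 12 embryos with both, and the lowest difference was 0.99 on the log2 scale. Markers of cortical projection neurons summed to 3330 CPM or more in every library, whereas markers of interneurons, which arise outside the Emx1 lineage, reached 141 CPM at most, endothelial markers 129 CPM and microglial markers 74.2 CPM. Other lists reached higher in single libraries, at 441 CPM for oligodendrocyte lineage markers (E16 red), 515 CPM for mural and meningeal markers (E13 red), 591 CPM for Cajal-Retzius markers (E13 red) and 321 CPM for choroid plexus markers (E16 yellow).

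Id proteins are helix-loop-helix factors without the basic region that binds DNA. They pair with E proteins such as Tcf3, Tcf4 and Tcf12 and keep them from joining proneural basic helix-loop-helix (bHLH) factors at E-box sites, which holds progenitors back from differentiation. Id1 and Id3 are textbook targets of bone morphogenetic protein (BMP) signalling. In the embryonic cortex Id4 is known from dividing progenitors of the ventricular zone, and Id2 from progenitors and from neurons of the cortical plate.

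Id1 (ENSMUSG00000042745.9) lies on the plus strand of chromosome 2 (GRCm38, start 152736251, end 152737410). Id2 (ENSMUSG00000020644.9) lies on the minus strand of chromosome 12 (start 25093799, end 25097140). Id3 (ENSMUSG00000007872.3) lies on the plus strand of chromosome 4 (start 136143497, end 136145755), and Id4 (ENSMUSG00000021379.2) on the plus strand of chromosome 13 (start 48261228, end 48266026). All are protein-coding and reads were counted over exons. Id4 is overlapped on the other strand by A330033J07Rik and Gm49291, each with 0 counts in the libraries kept. The libraries carry no strand, so reads over exon bases shared with either gene cannot be assigned and are not in the unstranded count of Id4. Its 2 stranded counts were 50.8% and 49.9% of the unstranded one.

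The sequences before the RefSeq starts of Id4 and Id2 are shown because these are the members whose levels changed with age. They come from RefSeq (GRCm38.p6), which gave a promoter for Id2, Id3 and Id4 and none for Id1. Capitals mark matches on either strand to CCAAT, to GGCGCC (a palindrome known from BMP-responsive elements) or to the E-box CANNTG, and no matches of different motifs overlapped. The Id4 stretch is chr13:48260866-48261115, plus strand. The Id2 stretch is chr12:25096254-25096342, minus strand. It lies inside the Gencode gene given above, whose outermost start is upstream of the RefSeq one, and outside its annotated exons, and the remaining 161 of its 250 bases, which lie in annotated Id2 exons, are not printed.
Id4: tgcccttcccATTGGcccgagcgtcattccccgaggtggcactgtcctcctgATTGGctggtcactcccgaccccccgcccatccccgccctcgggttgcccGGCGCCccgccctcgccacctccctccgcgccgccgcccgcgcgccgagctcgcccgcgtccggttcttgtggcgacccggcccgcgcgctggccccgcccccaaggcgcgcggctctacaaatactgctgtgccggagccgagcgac
Id2: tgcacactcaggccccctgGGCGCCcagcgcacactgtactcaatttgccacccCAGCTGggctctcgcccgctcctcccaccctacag
Over the whole 250 bases, Id4 held no E-box, 2 CCAAT matches and 1 GGCGCC match, and Id2 held 1 E-box, 3 CCAAT matches and 1 GGCGCC match. Among 32851 mouse promoters of that length, 66.2% held CANNTG, 33.8% CCAAT and 9.59% GGCGCC. Id3 held none of these motifs, but all 250 of its bases lie in annotated Id3 exons. The sequence before the outermost Gencode start of Id3 was not read. These are matches of letters and not measured binding sites.

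Id4 and Id2 were well covered in every library, whereas Id1 and Id3 were near the limit of detection in many. Id1 had 577 counts in all, 0 counts in 11 of the 36 libraries and 3 counts or fewer in 17. Id3 averaged 99.6 counts, with 0 counts in 4 libraries and 3 or fewer in 7. Id2 averaged 1094 counts and Id4 599 counts, and neither was at 0 in any library.

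Levels of different genes were compared as CPM per kilobase of exon. In E13 green cells, Id4 stood at 135 ± 57.1 CPM per kilobase (SD, n = 5), Id2 at 68.1 ± 34.3, Id3 at 15.3 ± 15.3 and Id1 at 6.22 ± 6.54. In E16 green cells, Id2 stood at 209 ± 58.8 CPM per kilobase (SD, n = 7), Id4 at 17.7 ± 6.76, Id3 at 7.30 ± 8.57 and Id1 at 3.89 ± 4.37. The leading gene of the family was thus Id4 in E13 green cells and Id2 in E16 green cells. Over all colours, Id4 exceeded Id2 per kilobase in 9 of 15 libraries at E13 and Id2 exceeded Id4 in 21 of 21 at E16. These counts, and the ratio given below, include the yellow libraries, whose Id4 values chose the family. At E13 Id4 was the higher in 4 of 5 green and 2 of 5 red libraries. At E16 Id2 was the higher in 7 of 7 green and 7 of 7 red libraries. At E13 Id4 and Id2 therefore were not ordered beyond their spread, and at neither age were Id3 and Id1, since Id3 was the higher in 12 of 15 libraries at E13 and in 14 of 21 at E16. At E16 Id4 exceeded Id3 in 14 of 21 libraries. On the log2 scale, the Id4 to Id2 ratio per kilobase had a median of 0.20 at E13 and of -4.07 at E16, and reached as low as -2.81 and -6.64.

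**Figure D1:**
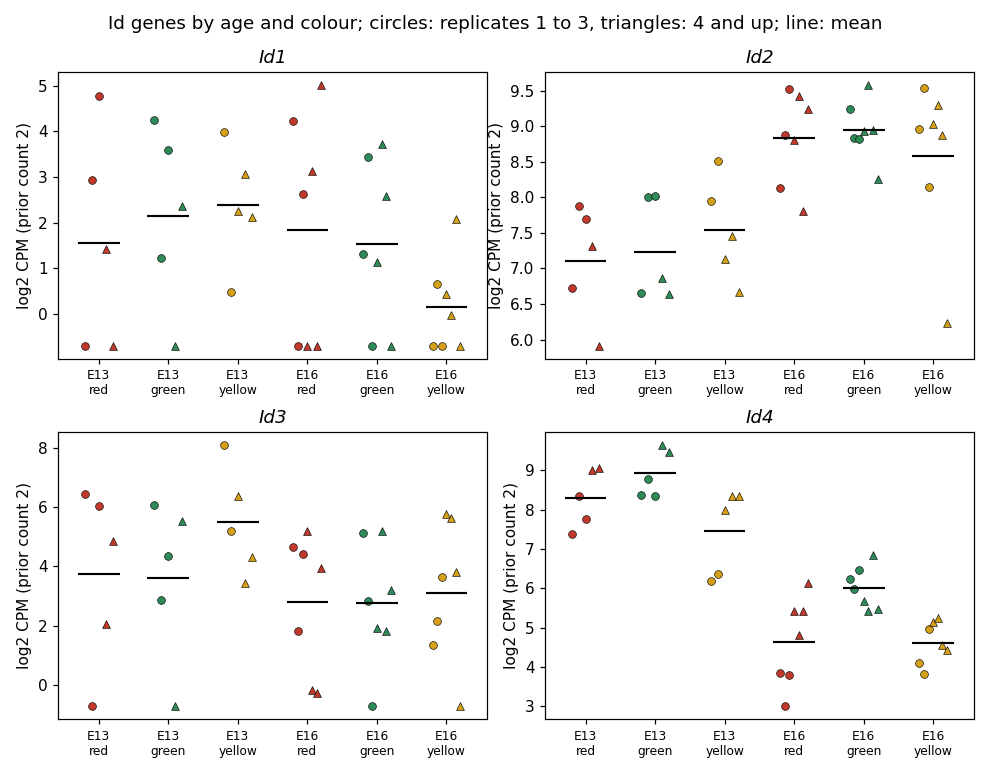
Level of each Id gene in the 36 libraries kept, as log2 CPM with a prior count of 2, by age and colour. Points are libraries (circles for replicates 1 to 3, triangles for 4 and up) in the colour of the sorted cells and lines are group means of the log2 values. Id4 is lower at E16 than at E13 without overlap in any colour, Id2 is higher at E16 apart from a few overlapping red and yellow libraries, and Id1 and Id3 spread widely in every group.

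The first comparison asked whether the members changed between E13 and E16 in singly coloured cells, which the choice of the family did not use. Id4 fell and Id2 rose, and no change of Id1 or Id3 passed the test. In red cells Id4 stood at 165, 324, 217, 512 and 531 CPM in E13 replicates 1, 2, 3, 4 and 6, and at E16 at 7.40 CPM in the lowest, 27.4 in the median and 69.8 in the highest of 7 libraries. In green cells it stood at 334, 437, 324, 799 and 709 CPM in the same E13 replicates, and at E16 at 42.4, 63.1 and 113.8 CPM in the lowest, median and highest library. Every E16 library lay below every E13 library of its colour. The same held for 1.93% of 11174 genes tested in red cells and 1.99% of 11186 in green cells.

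With red and green counts summed per embryo, Id4 averaged 421 CPM at E13 (SD 197, n = 5) and 46.5 CPM at E16 (SD 14.6, n = 7). Its log2 fold change, E16 minus E13, was -3.00 ± 0.32 (SE) with an adjusted p of 0.00032 (edgeR quasi-likelihood test, Benjamini-Hochberg), the second smallest p of 12797 genes. Of all genes tested, 3.24% passed the threshold of 0.05, with 1.67% higher and 1.56% lower at E16, against 2 of the 4 members, Id4 and Id2. The fall of Id4 in yellow cells, mostly of the same embryos, chose the family, so this count is not independent of the choice. In green cells alone the log2 fold change of Id4 was -2.90 ± 0.35 (SE) with an edgeR adjusted p of 0.00060. In red cells alone it was -3.39 ± 0.56 (SE) with an edgeR adjusted p of 0.0196. With all libraries, which adds those with few uniquely aligned reads, the adjusted p (edgeR) in green cells became 0.090. The call in red cells rested on single libraries, since the adjusted p (edgeR) became 0.0609 without E13 red replicate 2, 0.0609 without E13 red replicate 4 and 0.0504 without E16 red replicate 1.

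At E13 Id4 was also higher in every library of the second set than in those of the first set of the same colour. Its E13 levels were 165 to 324 CPM in red and 324 to 437 CPM in green libraries of the first set, and 512 to 531 and 709 to 799 CPM in the second. These groups held 2 or 3 libraries each, and the share of all genes so separated was not counted. The fall with age held within each set: at E16 the first set had 7.40 to 13.6 CPM in red and 63.1 to 87.3 CPM in green libraries, and the second 27.4 to 69.8 and 42.4 to 113.8 CPM. With the set as a term in edgeR, the summed log2 fold change was -3.03, with an adjusted p of 9.6e-05.

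Id2 moved the other way. In green cells it stood at 99.9, 257, 258, 116 and 99.4 CPM in E13 replicates 1, 2, 3, 4 and 6, and at E16 at 307 CPM in the lowest, 488 in the median and 767 in the highest library. In red cells it stood at 105, 235, 207, 160 and 59.6 CPM in the same E13 replicates, and at E16 at 223, 469 and 740 CPM in the lowest, median and highest library. The green groups did not overlap, which held in that direction for 1.67% of genes tested in green cells. The red groups overlapped only in E13 replicate 2, at 235 CPM, and E16 replicate 6, at 223 CPM. The study left out this E16 library.

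Summed per embryo, Id2 averaged 158 CPM at E13 (SD 73.0, n = 5) and 478 CPM at E16 (SD 141, n = 7). The log2 fold change was 1.78 ± 0.32 (SE), with an adjusted p of 0.0062 (edgeR, Benjamini-Hochberg). In green cells it was 1.70 ± 0.33 (SE) with an edgeR adjusted p of 0.0202. With all libraries both calls were lost, with adjusted p-values (edgeR) of 0.056 summed and 0.20 in green cells. In red cells it was 1.85 ± 0.42 (SE) and missed the threshold, with an edgeR adjusted p of 0.0792, which became 0.0474 without E16 red replicate 6. In green cells 1.39% of genes passed, 0.742% higher and 0.644% lower at E16, and 2 of the 4 members were among them. In red cells 0.322% passed, 0.17% higher and 0.152% lower, with 1 of the 4 members among them. Both counts of members include Id4, whose fall in yellow cells chose the family. In red and in green cells of each set, every E16 value of Id2 lay above every E13 value. These groups held 2 to 4 libraries each, and the share of all genes so separated was not counted.

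Id3 and Id1 varied so widely within groups that age could not be separated from that spread. Id3 stood at 85.1, 0, 65.1, 3.52 and 28.3 CPM in red cells of E13 replicates 1, 2, 3, 4 and 6, and ran from 0.211 to 35.98 CPM, with a median of 14.8, in the 7 red libraries at E16. Its summed log2 fold change was -1.09 ± 0.87 (SE), with an edgeR adjusted p of 0.55. Id1 stood at 0, 6.99, 26.6, 2.05 and 0 CPM in the same E13 red libraries and ran from 0 to 31.7 CPM, with a median of 5.58, at E16. Its summed log2 fold change was -0.31 ± 1.05 (SE), with an edgeR adjusted p of 0.92. Both ages overlapped for Id1 and for Id3 in every colour.

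**Figure D2:**
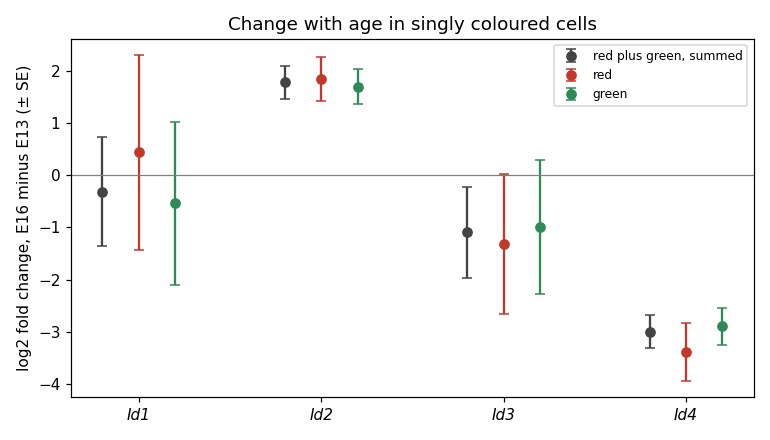
Log2 fold change, E16 minus E13, of each Id gene in red cells, in green cells and in both summed per embryo, from edgeR. Points are estimates and bars are standard errors. Id4 lies between -3.39 and -2.90, Id2 between 1.70 and 1.85, and the bars of Id1 and Id3 are wide.

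In yellow cells, whose Id4 values chose the family, the values are a description. Id4 stood at 71.8, 81.6, 255, 325 and 324 CPM in E13 replicates 1, 2, 4, 5 and 6, and at 13.6 CPM in the lowest, 22.8 in the median and 37.5 in the highest of 7 E16 libraries. The log2 fold change was -3.06 ± 0.51 (SE), close to that in red and green cells, and the ages did not overlap, as for 0.738% of 11378 genes. Id2 stood at 247, 363, 140, 174 and 102 CPM in the same E13 replicates and at 74.5, 501 and 742 CPM in the lowest, median and highest E16 library, with a log2 fold change of 1.23 ± 0.50 (SE). These groups overlapped, with E16 replicates 7 (74.5 CPM) and 3 (282 CPM) below the highest E13 library, replicate 2 (363 CPM). The study left out E16 replicate 7 and E13 replicate 2. In the yellow libraries it used, Id2 ran from 102 to 247 CPM at E13 and from 282 to 742 CPM at E16. Id3 and Id1 had log2 fold changes of -2.16 ± 1.10 and -2.91 ± 1.51 (SE). In the yellow fit 0.149% of genes passed the threshold.

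Cell type markers moved with age in the same summed fit, and their part in the changes of Id4 and Id2 was not tested. In sorted pools, fewer cells of a type and less RNA per cell cannot be told apart. Among the 8 radial glia genes, 4 fell and none rose past the threshold, and 2 of the 8 had a positive log2 value. Vim, an intermediate filament gene of radial glia, fell by 1.75 ± 0.24 (log2, SE; edgeR adjusted p = 0.0012). Nes, another such filament gene, fell by 4.61 ± 0.69 (log2, SE; edgeR adjusted p = 0.0021). Sox2 and Pax6, transcription factors of neural progenitors, fell by 2.78 ± 0.69 and 1.25 ± 0.31 (log2, SE; edgeR adjusted p = 0.039 for both). Fabp7, the radial glia gene with the highest level, had a log2 fold change of 1.01 ± 0.40 that missed the threshold (edgeR adjusted p = 0.16). Slc1a3, also of this list, averaged 61.3 CPM in green and 81.1 CPM in red cells at E13, and 161 and 87.7 CPM at E16. The list's median was -1.70, against 0.06 over all genes tested. Its summed level overlapped between ages, at 1768 to 3273 CPM at E13 and 978 to 3441 CPM at E16 in green cells, and at 1673 to 2677 and 530 to 3839 CPM in red cells.

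Most projection neuron markers went the other way, as 5 of 9 rose and none fell past the threshold, with a median log2 fold change of 1.07. Of the 9, 7 had a positive value. Tbr1 averaged 299 CPM in green and 378 CPM in red cells at E13, and 224 and 198 CPM at E16. Map2, a dendritic cytoskeletal gene, rose by 1.15 ± 0.20 (log2, SE; edgeR adjusted p = 0.0049). The summed level of the list ran from 3330 to 5421 CPM at E13 and from 6509 to 10470 CPM at E16 in green cells, and from 3776 to 5892 and 6539 to 10176 CPM in red cells. Of 4 intermediate progenitor genes, Gadd45g fell by 2.23 ± 0.35 (log2, SE; edgeR adjusted p = 0.0031) and the others did not pass. Of the mural and meningeal list, 2 of 5 tested genes fell, Col1a2 and Lum, and the summed level reached 515 CPM at E13 and 56.2 CPM at E16 at most. Of the oligodendrocyte lineage list 1 of 3 fell, Pdgfra, with 0 counts in 20 of the 21 E16 libraries. No gene passed among 4 interneuron, 1 endothelial, 3 Cajal-Retzius and 2 choroid plexus genes tested, and no microglial gene had enough counts to be tested.

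The partners of Id proteins were read from a list of 15 bHLH factors, of which 13 could be tested. With red and green summed, 1 rose and 2 fell past the threshold, 6 of the 13 had a positive value, and the median log2 fold change was -1.32. Neurod6, a factor of postmitotic projection neurons, rose by 1.39 ± 0.21 (log2, SE; edgeR adjusted p = 0.0028). Tcf3, an E protein and direct partner of Id proteins, fell by 1.84 ± 0.38 (edgeR adjusted p = 0.0153), with 181 ± 81.9 CPM in the 5 green libraries at E13 and 37.1 ± 15.7 CPM in the 7 at E16 (SD). Hes1, a repressor induced by Notch that keeps progenitors cycling, fell by 2.27 ± 0.51 (edgeR adjusted p = 0.0239). The other E proteins did not pass, with log2 fold changes of 0.87 ± 0.28 for Tcf4 and 0.07 ± 0.42 for Tcf12. In green cells alone the counts were again 1 higher and 2 lower of 11 tested, and in red cells none of 11 passed in edgeR.

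Of 24 genes of the BMP pathway, the best known inducer of Id genes, 19 could be tested with age and none passed in edgeR, with a median log2 fold change of -0.18. Of these 19, 5 had an unadjusted p under 0.05 in edgeR, against 2524 of all 12797 genes tested in this fit. Among the 5, the antagonist Grem1 had 0 counts in every E13 library and the ligand Bmp4 in every E16 library, so no fold is given. The ligand Bmp7 had a log2 value of -3.51 ± 1.59 (SE; edgeR adjusted p = 0.23). The receptor Acvr1 had 1.66 ± 0.58 (SE; edgeR adjusted p = 0.12) and the signal transducer Smad1 1.20 ± 0.47 (edgeR adjusted p = 0.16). Smad4, the common partner of the pathway's signal transducers and the list's most abundant gene, had 0.46 ± 0.43 (edgeR adjusted p = 0.63).

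**Figure D3:**
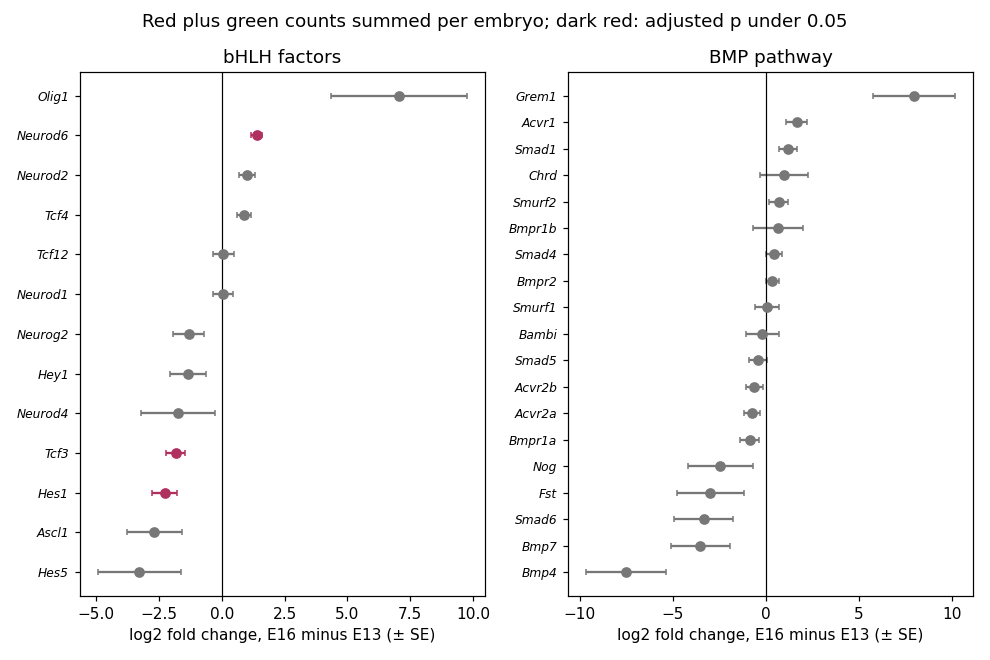
Log2 fold change, E16 minus E13, of the tested bHLH factors (left) and BMP pathway genes (right), with red and green counts summed per embryo. Points are edgeR estimates, bars are standard errors and dark red marks an adjusted p under 0.05. Neurod6 rose and Tcf3 and Hes1 fell, and no BMP pathway gene is marked.

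The study used matUPD and patUPD cells to vary the dose of imprinted Cdkn1c, and here the Id genes were compared between them. None of the 4 members passed the test at either age in edgeR or DESeq2, and none had an unadjusted p under 0.05 in edgeR. In edgeR 0% of 11786 genes passed at E13, where 264 had an unadjusted p under 0.05 and DESeq2 called 217, and 0.0278% of 10794 passed at E16. Cdkn1c, whose dose the disomy changes, did not pass in these edgeR fits either. Its log2 difference was 3.66 ± 1.33 at E13 (SE, edgeR unadjusted p = 0.017) and 6.49 ± 1.33 at E16 (SE, edgeR adjusted p = 0.23). A missed threshold here therefore does not show equal levels. The log2 difference of Id2, matUPD minus patUPD, was -0.03 ± 0.36 at E13 and 0.09 ± 0.38 at E16 (SE). For Id3 it was 0.04 ± 1.12 and -0.29 ± 1.51, and for Id1 -0.65 ± 2.28 and -0.80 ± 2.42. For Id4 it was 0.18 ± 0.32 at E13 and 0.97 ± 0.70 at E16, with an edgeR adjusted p of 1 at both ages. These fits held no term for colour, and with colour as a term the Id4 value at E13 was 0.012.

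The Id4 difference took opposite signs in the sets. At E13 it was positive in 3 of 3 embryos of the first set, with a mean of 0.68 on the log2 CPM scale, and negative in 2 of 2 of the second, with a mean of -0.53. At E16 it was positive in 3 of 3 embryos of the first set, from 2.40 to 2.99, and in 1 of 4 of the second, from -1.41 to 0.66. Since the colours swap parental origin between the sets, Id4 was higher in the green library of embryos of either set, with 1 exception at E16. The difference of matUPD and patUPD between ages was 0.80 ± 0.69 (SE) for Id4 in the age by disomy term, and none of the 4 members passed in edgeR or DESeq2. In that term 0% of 11472 genes passed in edgeR, 291 at an unadjusted p under 0.05, and 174 passed in DESeq2.

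By colour, Id4 was higher in the green than in the red library of 11 of 12 embryos. The E13 pairs of green and red were 334 and 165, 437 and 324, 324 and 217, 799 and 512, and 709 and 531 CPM. At E16 the first set had 74.7 and 13.6, 63.1 and 7.40, and 87.3 and 13.2 CPM. The second set had 50.8 and 42.0, 42.4 and 27.4, 113.8 and 42.3, and 43.9 and 69.8 CPM, the last pair being the exception. The median log2 difference over the embryos was 0.63. The same count of 11 or more embryos with green above red was reached by 0.432% of 11333 genes. For Id2 the count was 7 of 12, and for Id1 and Id3 it was 6 of 12 each.

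In edgeR the green minus red difference of Id4 did not pass, with a log2 value of 0.59 ± 0.28 at E13 (SE, unadjusted p = 0.053, adjusted p = 1) and 1.26 ± 0.66 at E16 (SE, unadjusted p = 0.072, adjusted p = 1). The DESeq2 adjusted p was 0.27 and 0.37. For Id2 the log2 values were 0.11 ± 0.36 at E13 and -0.11 ± 0.38 at E16 in edgeR. None of the 4 members passed at either age in edgeR or DESeq2 or had an unadjusted p under 0.05 in edgeR, as 0% of genes passed in edgeR, with 261 at an unadjusted p under 0.05 at E13 and 251 at E16, and 229 and 76 passing in DESeq2. The summed level of radial glia markers was higher in green in 8 of the 12 embryos and that of projection neuron markers in 4 of 12, and their part in the Id4 values was not tested.

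**Figure D4:**
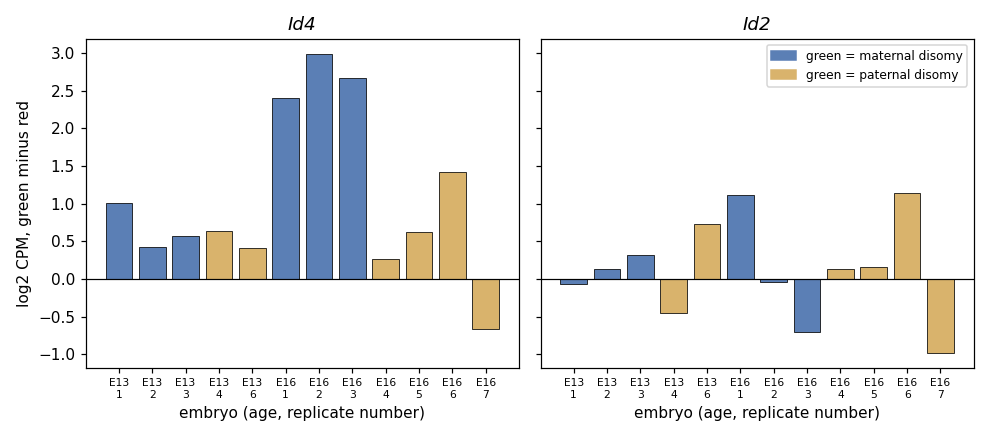
Difference in log2 CPM (prior count 2) between the green and the red library of each of 12 embryos, for Id4 (left) and Id2 (right). Blue bars are embryos in which green cells had matUPD and tan bars embryos in which green cells had patUPD. Id4 is above 0 in 11 of 12 embryos, whereas Id2 is above 0 in 7.

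Singly coloured cells were also compared with the yellow control cells. Of Id1, Id2 and Id3, none passed the test at either age in edgeR or DESeq2. In edgeR 0.00848% of genes passed at E13, 1 of 11786, where 808 had an unadjusted p under 0.05 and DESeq2 called 538. At E16 0% passed, where 257 had an unadjusted p under 0.05 and DESeq2 called 82. Id2 was lower in singly coloured cells in 4 of 4 embryos at E13, from -1.26 to -0.04 on the log2 CPM scale. The share of all genes lower in every embryo was not counted. The fitted log2 difference of Id2 was -0.62 ± 0.34 at E13 (SE, edgeR adjusted p = 0.77) and 0.23 ± 0.34 at E16. Id3 had -3.03 ± 1.33 at E13 (SE, edgeR unadjusted p = 0.040, adjusted p = 0.71), and -0.42 ± 1.33 at E16. In yellow cells at E13 Id3 stood at 270, 35.6, 82.9, 10.2 and 19.5 CPM in replicates 1, 2, 4, 5 and 6, against 0 to 85.1 CPM in singly coloured cells, and the groups overlapped. Id1 had -0.66 ± 1.92 at E13 and 3.50 ± 2.07 at E16, where it was at or below 3 counts in 6 of 7 yellow libraries.

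Id4 is described without a test in this comparison. It was higher in singly coloured cells in 4 of 4 embryos at E13, by 0.92 to 2.20 on the log2 CPM scale, and in 6 of 7 at E16. The share of all genes with such counts was not taken. The groups at E13 ran from 165 to 799 CPM in singly coloured and from 71.8 to 325 CPM in yellow libraries. At E16 they ran from 7.40 to 113.8 and from 13.6 to 37.5 CPM. The fitted log2 difference was 1.47 ± 0.29 at E13 and 0.87 ± 0.57 at E16 (SE). Beside it at E13, all 7 tested radial glia genes had a positive value, with a median of 0.95, and all 9 projection neuron genes a negative one, with a median of -0.49, against a median of -0.10 over all genes. None of these passed in edgeR, and their part was not tested.

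Across the 36 libraries, which share age, colour and depth differences, Spearman's rho between Id2 and Id4 was -0.66. These libraries include the yellow ones, whose Id4 values chose the family, so values of rho with Id4 are a description. Within E13 it was -0.54 over 15 libraries and within E16 -0.04 over 21. Id1 and Id3 had a rho of 0.32 over all libraries, 0.28 within E13 and 0.35 within E16. No other pair exceeded 0.18 in size over all libraries. Within ages the other pairs reached -0.57 for Id3 and Id4 at E13 and 0.50 for Id1 and Id2 at E16.

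The genes whose levels were most like each member over the 36 libraries, yellow ones included, were taken from 7532 genes with a mean count of 50 or more. For Id4 they were Vim (rho = 0.88), Hmga2 (0.83), a chromatin protein of early progenitors, and Cdk1 (0.83), the mitotic kinase. Within ages, Vim had a rho of 0.84 at E13 and 0.61 at E16, Hmga2 of 0.31 and 0.54, and Cdk1 of 0.76 and 0.34. For Id2 they were Dab1 (0.83), the adaptor of Reelin signalling in migrating neurons, Ntsr1 (0.83), a neurotensin receptor known from deep layer neurons, and Tuba1a (0.81), a tubulin of young neurons. Within E13 and E16, Dab1 had a rho of 0.73 and 0.39, Ntsr1 of 0.38 and 0.53, and Tuba1a of 0.35 and 0.56. For Id3 the nearest were Eef1akmt4 (0.65), Ncapg2 (0.64) and Gstm5 (0.58), and for Id1 Eci1 (0.68), Tcf19 (0.64) and Nbdy (0.60). For Id4 and Id2 the likeness to these genes was larger over both ages together than within either age. Since the genes were picked by rho over both ages, a lower rho within an age follows in part from that choice.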

How the data were processed

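Libraries of colour-sorted cell pools were made with the Smart-Seq2 protocol and carry neither molecular identifiers nor strand. The authors combined technical replicates (SAMtools 1.8, bedtools 2.26.0), aligned reads to GRCm38 with STAR 2.5.0c and the Gencode M16 annotation, and deposited a table of raw read counts per gene for each library, not normalised. The unstranded count column was used, and uniquely aligned reads in no gene, 12.8% to 44.1% per library, stayed out of library sizes. Of 53379 genes, 53274 were matched to Gencode M21 of the same build, which gave symbols, positions and exon lengths.

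Groups are the age and colour in the labels. The labels do not give the parental origin of a colour. It was assigned by replicate number as stated in the report, which matches the study's sample details. Libraries with under 40% uniquely aligned reads were left out, which removed 3 libraries at E13, the yellow one of replicate 3 and the singly coloured ones of replicate 5. The study used 32 libraries, and these were fitted as an alternative. Replicates were single embryos.

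Genes with a mean count of 10 or more entered the quasi-likelihood test of edgeR 4.0.16 (R 4.3.3) after TMM normalisation, and p-values were adjusted over all genes tested (Benjamini-Hochberg). Colour and disomy fits used all libraries of an age with the embryo as a block, whereas the study's design holds a sample number shared by several embryos, fitted here as an alternative named the set. The libraries of each of 13 embryos had the same majority of Xist or Y-linked counts, although 3 embryos had a library with at least 50 counts of both, and deviations from group means correlated at 0.032 on average between same-numbered libraries and -0.0047 between others. Age fits had no block, since the embryos differ. Log2 CPM used a prior count of 2 scaled to library size. The named list genes are at most 4 per list and comparison past the threshold with the smallest p and the most abundant one, and the genes most like a member are the 3 with the highest Spearman correlation. Tcf12, Slc1a3, Tbr1 and the BMP genes other than Smad4 were named after their values were seen. Members and lists were chosen with earlier results of these data known.

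Steps were tested on simulated counts. At a log2 change of 2, edgeR called 13 of 191 changed genes for green minus red at E13 (1 false call), 7 of 191 at E16 (0 false) and 41 of 184 for age with red and green summed (5 false). Alternatives were RLE normalisation, no filter on low counts, DESeq2 1.42.0, all libraries, the study's libraries, other blocks, colour as a term in disomy fits and leaving out replicates in turn. SDs are over libraries or embryos and SEs come from the edgeR fits, so both include spread between libraries or embryos. The floor of 3 counts covers counting error only, and reads copied by PCR are not independent molecules.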

Additional observations from a re-analysis of the deposited data

Results flagged for a closer look

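A single library stood apart from the others of its group in 3 of the 24 gene and group combinations checked for the Id genes. The rule's rate of about 1 in 20 by chance holds for normally distributed values only. All 3 were Id1 or Id3, near the limit of detection in many libraries, so that rate is no guide here. Id1 was at 26.6 CPM in E13 red replicate 3, with the other 4 libraries at 6.99 CPM or less. Id1 was at 3.63 CPM in E16 yellow replicate 6, with the other 6 at or below the floor of 3 counts. Id3 was at 270 CPM in E13 yellow replicate 1, with the next at 82.9 CPM, and without that library the log2 fold change of Id3 with age in yellow cells moved from -2.16 to -0.92. The Id4 difference between matUPD and patUPD at E13 had a mean of 0.68 on the log2 CPM scale in the first set and of -0.53 in the second, opposite in every embryo, and the difference between the sets was not tested. Among the libraries left out, Id4 stood at 996 CPM in E13 red replicate 5, above every library kept, and at 1.31 CPM, a single count, in the green library of the same embryo.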

How the results depend on the processing

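Of 631 refitted log2 values of the members, 620 stayed on the same side of the threshold or within their error, although 50 of the 631 changed sign, none of them a called one. Id4 with red and green summed passed in every fit. With all libraries, red plus green summed called 1 member in place of 2 (Id2, edgeR adjusted p = 0.056) and green cells 0 in place of 2 (Id4 0.090, Id2 0.20). This adds E13 green replicate 5, with 762176 gene counts and 1 count of Id4. In red cells, 1 member was called, and 2 with DESeq2 or with the libraries the study used. Without each replicate in turn it was 0 to 2 in red cells, 2 in green cells and 2 with the colours summed.

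Without the embryo block, whether the set was a term or not, 0 members were called for disomy, colour, singly coloured against yellow and age by disomy, as with it, and the blocked fits changed no call. For singly coloured minus yellow at E13 the log2 value of Id4 was 1.47 with the block, 1.396 with the set in its place and 0.96 with no block and no set. Calls over all genes differed by more: with age, DESeq2 called 1277 against 414 in edgeR with colours summed, 691 against 155 in green and 298 against 36 in red cells, and for disomy 217 against 0 at E13 and 62 against 3 at E16. For singly coloured minus yellow at E13 it called 538 against 1. With all libraries edgeR called 55 summed, 36 in green and 5 in red cells, and with the study's libraries 189 in red cells. Leaving out a replicate gave 224 to 450 calls summed, 71 to 203 in green and 5 to 78 in red cells. The cause of these differences was not tested. The age by disomy fit was not rerun without each embryo. In simulated data most log2 changes of 2 were not called at these sample sizes, so a missed threshold does not show that a member did not change.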
